A study of Mus musculus with 9 samples.

Results

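Macrophages of wild-type mice that had received bacterial lipopolysaccharide (LPS) for 4 h were compared with those that had received it for 1 h, over the 10032 genes that the arrays measured above a minimum level. The comparison rested on 2 of the 9 arrays of the series, 1 at each time, and an unstimulated wild-type array (0 h) placed each gene in the time course. The cells were macrophages drawn into the peritoneal cavity by thioglycollate broth, an irritant, and the dose was 100 ng/ml LPS. The remaining 6 arrays came from macrophages without MyD88 (MyD88-/-, written MyD88 KO) and without TRIF (TRIF-/-, written TRIF KO) at the same 3 times and dose. No array was repeated, and the sources used here do not give the strain background, sex, age or number of mice. Levels are log2 values of the robust multi-array average (RMA), so a difference of 1 is 2-fold. Fewer cells of a type and less RNA per cell cannot be told apart in such bulk RNA.

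LPS is sensed by Toll-like receptor 4 (TLR4), which signals through the adaptors MyD88 and TRIF. MyD88 is known for the fast activation of NF-kB and MAP kinases and of inflammatory cytokine genes, and TRIF for the activation of interferon regulatory factors and the interferon genes. Primary response genes of macrophages are transcribed within minutes and often encode unstable transcripts, while secondary response genes follow once proteins made in the first wave, among them secreted interferon, have acted.

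The arrays had medians between 7.01 and 7.07. The macrophage identity list had 14 of its 15 genes on the array, all of which reached log2 6. Adgre1, which encodes the macrophage antigen F4/80, read 12.14, 12.10 and 12.26 at 0, 1 and 4 h in wild type, and Csf1r, the receptor for the growth factor M-CSF, read 13.33, 13.31 and 13.41. The summed linear level of the list was 68492 at 1 h and 68208 at 4 h, within its range of 67661 to 71749 over the 9 arrays. Lists for lymphocytes (B cells and T or NK cells), granulocytes (neutrophils, eosinophils and mast cells), erythroid and dendritic cells, fibroblasts and mesothelium had summed levels between 239 and 2443 at 1 h and between 239 and 2280 at 4 h, with a 4 h over 1 h ratio of -0.10 to 0.18 on the log2 scale. Their part in the results was not tested. Epx of eosinophils and Msln of mesothelium, for example, read 6.06 and 5.07 at 1 h, and Cd3e of T cells and Ms4a1 of B cells read 8.01 and 7.40, with differences from 1 h to 4 h between -0.10 and 0.04 for these 4 genes. Other markers moved more: of 9 measured neutrophil markers the metalloprotease genes Mmp9 rose and Mmp8 fell, with 0.81 and -0.60 in wild type, and Cd79b of B cells differed by -0.41 and did not pass. The targeted gene Myd88 read 9.19 to 9.34 in MyD88 KO and 9.54 to 10.002 on the other 6 arrays, and the sources used here do not say where its probe set lies relative to the deletion. Ticam1, the gene of TRIF, was not analysed here.

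More genes were higher than lower when the wild-type array at 4 h was set against that at 1 h. At 4 h, 90 genes were at least 2-fold higher than at 1 h (0.897% of the 10032) and 42 at least 2-fold lower (0.419%), and 12 (0.12%) and 1 (0.00997%) passed 4-fold. The largest positive difference was in Ccl5, a chemokine for T cells, which was 13.7-fold higher, and the largest negative one in Egr1, an immediate early transcription factor, which was 8.02-fold lower. Differences were small for most genes, with a median of 0.03 (log2) and 99% of the genes within 1.13. For comparison, the unstimulated MyD88 KO array had 8 genes 2-fold above (0.0797%) and 17 below (0.169%) the unstimulated wild-type array, and the TRIF KO array had 8 (0.0797%) and 7 (0.0698%). With 1 array on each side these counts have no replicate check. Of the 90 and 42 genes, 24 and 26 lay within 0.2 of the limit, and 53 and 58 more lay just short of it. Centring the arrays on 13 reference transcripts moved the median of all genes by -0.11 and gave 76 genes higher and 68 lower, so the split between higher and lower genes depends on the scaling.

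The genotypes were the only repeats of a time point. A limma fit of genotype and time to the 9 arrays therefore tested the change from 1 h to 4 h that the 3 genotypes share, and "rose" and "fell" are used below only for genes it called at a Benjamini-Hochberg adjusted p under 0.05. It called 406 genes higher (4.05%) and 578 lower (5.76%), with median changes of 0.43 and -0.37, and 2144 genes had an unadjusted p under 0.05. The wild-type arrays that formed the classes below are part of this fit, so the calls of class members are not independent of the choice. A second limma fit to the 6 knockout arrays alone did not use them and called 201 genes higher (2%) and 275 lower (2.74%). Without genotype as a term the limma fit called 105 genes higher and 98 lower, and Dusp1, Fpr2 and Clec4e, described below, were among the genes that lost their call (adjusted p = 0.0551, 0.117 and 0.0618).

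The genes were sorted by their wild-type path. Early genes were at least 2-fold higher at 1 h than at 0 h, which held for 24 genes (0.239%). From 1 h to 4 h, 5 of them were at least 2-fold lower (transient), 16 differed by less than 2-fold either way (sustained) and 3 were at least 2-fold higher still (rising). Late genes, 81 in number (0.807%), were less than 2-fold up at 1 h and at 4 h stood at least 2-fold above both earlier arrays. Another 24 genes reached 2-fold over the unstimulated array at 4 h without a 2-fold step in either interval (gradual), and 37 genes were at least 2-fold lower at 4 h than at 1 h without having been early (late fall). These names describe sizes on single arrays, and the 1 h array enters both intervals.

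**Figure D1:**
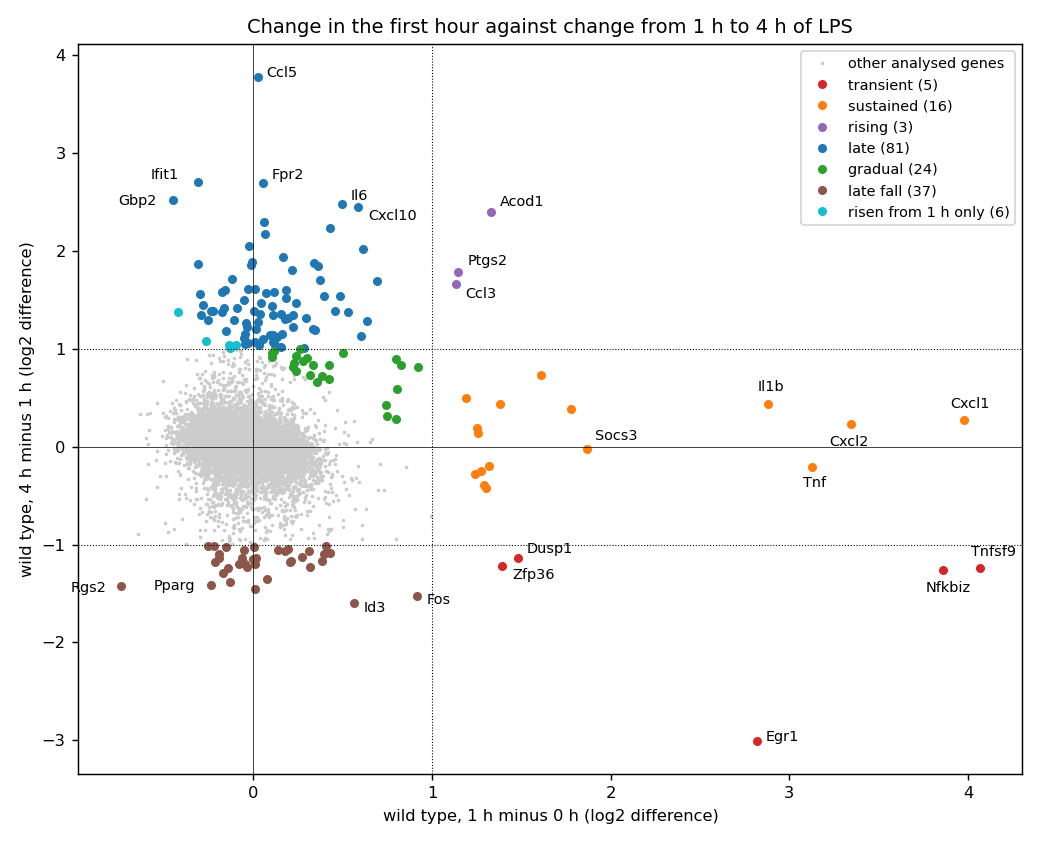
Each point is 1 of the 10032 genes, with its wild-type difference from 0 h to 1 h on the horizontal axis and from 1 h to 4 h on the vertical axis (log2, 1 array per time). Colours mark the classes, grey points are all other genes and dotted lines mark 2-fold. Egr1 lies alone at the bottom at -3.003, the 16 sustained genes lie between the dotted lines on the right, and the 81 late genes form a column at the upper left, with Ccl5 at 3.78.

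The transient genes encode an immediate early transcription factor, an mRNA decay factor, a phosphatase, an NF-kB cofactor and a cytokine. Egr1 read 8.19, 11.01 and 8.002 at 0, 1 and 4 h, so that its 4 h level was below the unstimulated one. Its difference from 1 h to 4 h was -3.003 for wild type, -1.93 for MyD88 KO and -2.45 for TRIF KO, so it was lower in 3 of 3 genotypes, and it fell by 2.46 across them (SE 0.178; adjusted p = 4.71e-06, limma with Benjamini-Hochberg adjustment). Zfp36 encodes tristetraprolin, which binds AU-rich elements and speeds the decay of Tnf and other cytokine transcripts. It read 10.76, 12.15 and 10.93, and it fell by 1.01 across genotypes (SE 0.115, lower in 3 of 3; adjusted p = 0.000164, limma with Benjamini-Hochberg adjustment). Dusp1, the phosphatase that switches off p38 and JNK, read 9.74, 11.22 and 10.08 and fell by 0.83 (SE 0.103, lower in 3 of 3; adjusted p = 0.000307 by limma with Benjamini-Hochberg adjustment). These 3 genes were back near their starting level at 4 h and kept -6.56%, 12.4% and 23.0% of the log2 induction seen at 1 h.

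The other 2 transient genes had a larger difference at 1 h and were still well above the unstimulated level at 4 h. Nfkbiz, which encodes the nuclear NF-kB cofactor IkB-zeta, read 6.87, 10.73 and 9.47 and kept 67.4% of its log2 induction. Tnfsf9, the ligand of the costimulatory receptor 4-1BB, read 6.06, 10.13 and 8.88 and kept 69.4%. Their differences from 1 h to 4 h were -1.26 and -1.24 for wild type, -0.76 and -1.25 for MyD88 KO, and -1.27 and -0.68 for TRIF KO. All 6 values were below 0, and neither gene passed the test across genotypes (limma, Benjamini-Hochberg adjusted p = 0.0521 for Nfkbiz and 0.0793 for Tnfsf9). In the fit to the knockout arrays alone, Egr1, Zfp36, Dusp1 and Tnfsf9 were called lower. A second probe set of Nfkbiz differed by -1.07 in wild type.

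Zfp36 and Dusp1 had a window around their start in the RefSeq promoter table (assembly GRCm38.p6), and each held a motif of immediate early genes. They are printed here as the promoters of transcripts that were high at 1 h and near their starting level at 4 h. Capitals mark the CArG box of Zfp36, the site of serum response factor (searched as 10 letters), and the CRE of Dusp1, the cyclic AMP response element TGACGTCA. The 150 bases end at the base before the annotated start, the box of Zfp36 begins 58 bases before it and the CRE of Dusp1 143 bases before it.
Zfp36, chr7:28379229-28379378, minus strand: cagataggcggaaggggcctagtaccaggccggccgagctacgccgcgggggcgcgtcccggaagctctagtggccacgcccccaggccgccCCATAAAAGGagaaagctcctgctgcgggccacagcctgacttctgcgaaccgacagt
Dusp1, chr17:26508473-26508622, minus strand: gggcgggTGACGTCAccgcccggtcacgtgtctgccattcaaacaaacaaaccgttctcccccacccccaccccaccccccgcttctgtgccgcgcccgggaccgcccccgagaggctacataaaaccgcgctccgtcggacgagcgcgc

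Searched on both strands of the 300-base windows (250 bases before to 50 after the start), the CArG box was found in 1.81% and the CRE in 2.03% of the 27025 genes of the table. Of the 172 genes in the classes, 139 had a window, and among them matches of different motifs overlapped in 0 of 29 windows with a match. A match describes letters and says nothing about binding.

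Genes related to the transient ones by function moved in both directions. Of 24 measured immediate early transcription factors, 10 fell, 4 rose and 10 did not pass, with a wild-type median of -0.21 against 0.03 over all genes. Over all genes 5.76% fell and 4.05% rose, and the list counts here and below are to be set against these shares. The lists were chosen with earlier results of these data known, so such counts describe the lists and are no independent result. Fos, a subunit of AP-1, read 11.09, 12.01 and 10.48. Its first-hour gain of 0.92 was just short of 2-fold, which put it among the late falls with a difference of -1.53, and it fell across genotypes (limma, Benjamini-Hochberg adjusted p = 0.00407), with -0.28 in MyD88 KO and -0.85 in TRIF KO. Btg2, an antiproliferative factor, read 8.89, 9.68 and 8.74 and fell, with differences of -0.94, -0.78 and -0.94 in wild type, MyD88 KO and TRIF KO. Jun, Egr2, Ier2 and Nr4a1 fell too, with wild-type differences of -0.84, -0.64, -0.44 and -0.36. The exceptions were Cebpd and Cebpb, C/EBP factors of the acute phase response, which rose with 1.29 (0.21 in a second probe set of Cebpd) and 0.37, and Maff and Fosl1, which rose with 0.82 and 0.39.

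Among 9 measured CCCH zinc finger and mRNA decay proteins, 4 fell and 1 rose, against 5.76% and 4.05% of all genes. Besides Zfp36, its paralogs Zfp36l2 and Zfp36l1 fell, with wild-type differences of -1.09 and -0.62, and so did Tob1, an adaptor of the deadenylase, with -0.62. The 2 other probe sets of Zfp36l2 disagreed, with 0.17 and -0.66. Elavl1, which encodes the stabilising protein HuR, rose with 0.40. Among 18 signalling feedback regulators, 4 fell (Rgs1, Dusp1, Dusp2 and Gadd45a) and Dusp16 rose, with wild-type values of -1.46, -1.14, -0.70, -0.17 and 0.68. A rise in 1 of 18 is near the 4.05% of all genes that rose.

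The sustained genes included the main inflammatory cytokines and neutrophil chemokines of the first hour. Their wild-type differences from 1 h to 4 h ran from -0.42 for Cd83 to 0.73 for Pde4b, with 7 below 0 and 9 above. The chemokine Cxcl1 read 5.19, 9.17 and 9.44 at 0, 1 and 4 h, its neighbour Cxcl2 read 9.01, 12.36 and 12.59, and the cytokine Tnf read 9.54, 12.67 and 12.46. Il1b, the inflammasome substrate interleukin-1 beta, read 6.95, 9.83 and 10.27, and Il1a read 6.89, 8.67 and 9.06. At 4 h these 5 transcripts were within 0.44 of their 1 h level on the wild-type arrays. In MyD88 KO they were lower at 4 h than at 1 h, with -0.92 for Cxcl1, -1.02 for Cxcl2, -0.48 for Tnf, -1.02 for Il1b and -0.57 for Il1a. In TRIF KO the values lay between -0.40 for Il1b and -0.01 for Cxcl2. None of the 5 passed the test of a shared change, and whether the genotypes differ was not tested because each difference has 1 array a side.

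The promoter windows of Cxcl1 and Cxcl2, which lie next to each other on chromosome 5, each held the NF-kB motif, searched as 10 letters with positions 4 and 5 left free, in 2 places. They are printed because both chemokines were high at 1 h and at 4 h. Capitals mark the matches on either strand, which begin 89 and 71 bases before the start in Cxcl1 and 97 and 78 bases before it in Cxcl2.
Cxcl1, chr5:90891095-90891244, plus strand: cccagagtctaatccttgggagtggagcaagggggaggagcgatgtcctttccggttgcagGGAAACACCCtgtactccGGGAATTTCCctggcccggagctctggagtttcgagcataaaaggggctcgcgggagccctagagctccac
Cxcl2, chr5:90903749-90903898, plus strand: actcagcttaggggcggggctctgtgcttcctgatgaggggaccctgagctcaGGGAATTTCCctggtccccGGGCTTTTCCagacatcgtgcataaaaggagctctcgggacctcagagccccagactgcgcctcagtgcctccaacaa

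Tnfaip3 was the third sustained gene with this motif, so that 3 of the 14 sustained genes with a window held it, against 1.89% of all genes in the table. The motif was not confined to this class. It was also found in 4 of 63 late genes with a window (6.35%), namely Casp4, Il6, Nfkb2 and Tfec. The 2 transient genes with a window had no match in this search, and the other transient genes, Nfkbiz among them, had no window to search.

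Several sustained genes encode brakes on the response. Tnfaip3, the NF-kB inhibitor A20, read 7.95, 9.27 and 9.07, and Socs3, the inhibitor of IL-6 receptor signalling, read 7.66, 9.53 and 9.51. Their wild-type differences were -0.20 and -0.02, although 2 further probe sets of Socs3 gave 0.29 and 0.56. Zc3h12a, the RNase Regnase-1 that cuts cytokine transcripts, read 6.49, 7.78 and 7.39, and Ier3, a regulator of cell survival, read 8.66, 9.94 and 9.68. Junb, a subunit of AP-1, read 8.91, 10.15 and 9.87, and the maturation marker Cd83 read 8.99, 10.30 and 9.88. Only Cd83 and Ier3 of the 16 sustained genes passed the test across genotypes, and both fell, by 0.39 and 0.43 and in 3 of 3 genotypes (adjusted p = 0.0215 and 0.0143, limma with Benjamini-Hochberg adjustment). Both calls were lost with values below log2 6 raised to it (adjusted p = 0.065 and 0.0503) and without genotype in the limma fit (adjusted p = 0.344 and 0.650). With the 1 h and 4 h arrays alone, Tnf and Junb were called lower and Phlda1 and Pde4b higher (limma, adjusted p = 0.038, 0.0417, 0.0153 and 0.0387). Cd83, Junb and Zc3h12a were no longer 2-fold above the unstimulated array at 4 h.

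The remaining sustained genes were higher at 4 h than at 1 h in wild type. Irf1, an interferon regulatory factor, read 9.45, 10.70 and 10.89, and Ccrl2, a receptor that presents chemerin, read 9.40, 10.59 and 11.09. Pde4b, the phosphodiesterase that lowers cyclic AMP, read 7.31, 8.92 and 9.65, Phlda1 read 6.53, 7.91 and 8.35, and Gdap10 read 7.80, 9.06 and 9.21. Their differences of 0.15 to 0.73 did not pass the test.

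The 3 rising genes were up at 1 h and further up at 4 h. Acod1 encodes the enzyme that makes itaconate, a metabolite with antibacterial action. It read 9.31, 10.64 and 13.04 and was 5.29-fold higher at 4 h than at 1 h, and it rose by 2.58 across genotypes (SE 0.196, limma, Benjamini-Hochberg adjusted p = 7.13e-06), with differences of 3.16 for MyD88 KO and 2.19 for TRIF KO. Ptgs2, the inducible cyclooxygenase, read 5.47, 6.62 and 8.40 for wild type, 5.59, 5.67 and 5.67 for MyD88 KO and 5.38, 6.03 and 6.65 for TRIF KO. Ccl3, a chemokine for monocytes, read 8.73, 9.86 and 11.53 for wild type, 8.96, 9.15 and 8.61 for MyD88 KO and 9.23, 9.91 and 10.56 for TRIF KO. Acod1 was higher at 4 h in every genotype, while Ptgs2 and Ccl3 were higher in wild type and TRIF KO and level or lower in MyD88 KO. They did not pass the test of a shared change, with adjusted p = 0.189 and 0.432 (limma, Benjamini-Hochberg), and passed it without the MyD88 KO arrays.

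**Figure D2:**
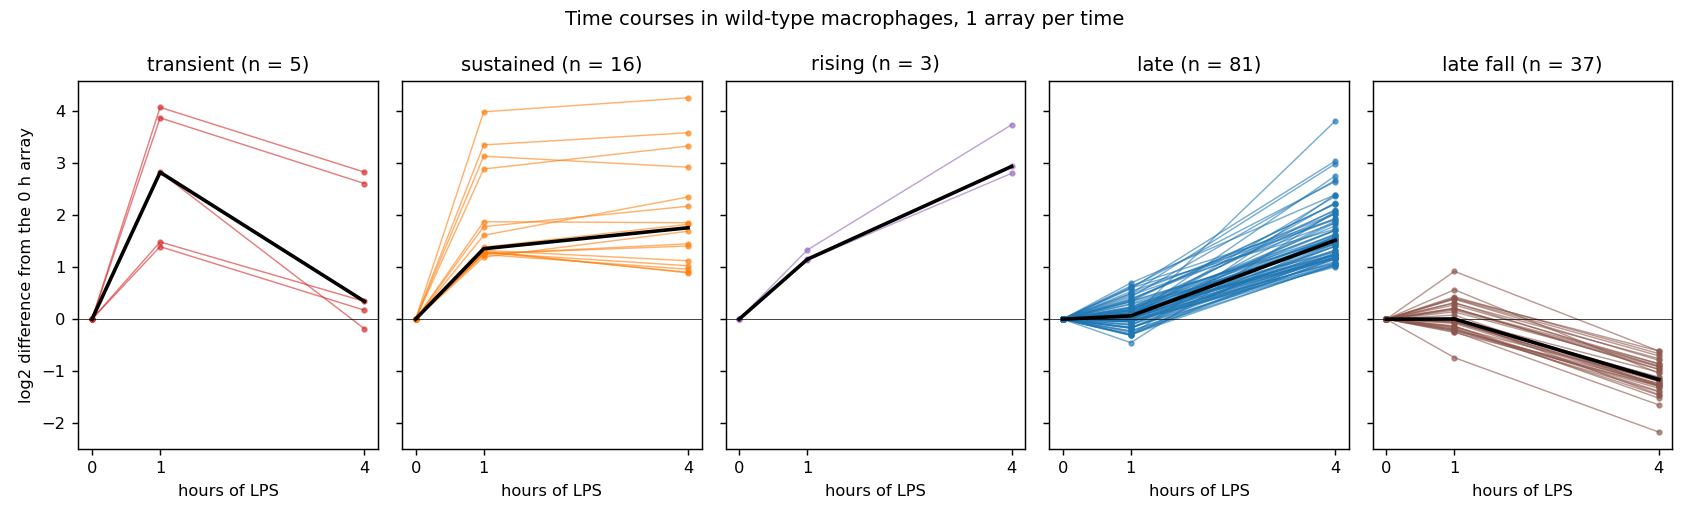
Log2 difference from the unstimulated wild-type array at 0, 1 and 4 h of LPS for each member of 5 classes (thin lines, 1 array per time), with the median of the class as a thick black line. The median of the transient genes went from 2.82 at 1 h to 0.34 at 4 h, that of the sustained genes from 1.35 to 1.75, that of the late genes from 0.06 to 1.51 and that of the late falls from 0.0031 to -1.16.

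Of the 90 genes at least 2-fold higher at 4 h than at 1 h, 81 were late genes. They were by definition less than 2-fold up in the first hour, in which only 0.239% of all genes were 2-fold higher and 0 lower. Of the 81, 75 lay within 0.5 of the unstimulated level at 1 h. That share was not counted over all genes, so it is not read as particular to late genes. Below that level were 28 of the 81 and 5509 of all 10032 genes. Their wild-type gains ran from 1.00 for Birc3 to 3.78 for Ccl5, with a median of 1.39. In the fit across genotypes, which holds the wild-type arrays that chose the class, 77 of the 81 rose, against 4.05% of all genes. Ccl4, Cxcl5, Il12a and Il6 did not pass. In the knockout arrays alone, 59 of the 81 were called higher, against 2% of all genes.

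The list of type I interferon and interferon-stimulated genes held 12 of the late genes. In the knockout arrays their differences were larger in MyD88 KO than in TRIF KO. Ccl5 read 7.68, 7.71 and 11.48 at 0, 1 and 4 h for wild type, 7.60, 7.71 and 9.63 for MyD88 KO and 7.11, 7.14 and 7.56 for TRIF KO. Ifit1, an antiviral protein that binds foreign RNA caps, read 8.004, 7.69 and 10.40 for wild type, 8.15, 8.26 and 10.40 for MyD88 KO and 7.37, 7.35 and 8.06 for TRIF KO. Cxcl10, a chemokine for T cells, read 6.72, 7.30 and 9.75 for wild type, 6.85, 7.33 and 9.38 for MyD88 KO and 6.93, 6.997 and 7.58 for TRIF KO. In these 3 genes the wild-type and MyD88 KO arrays at 4 h stood clear of all arrays at 0 and 1 h, and the TRIF KO array stood closer to them. They rose across genotypes by 2.04, 1.85 and 1.69 (SE 0.453, 0.273 and 0.313, each higher in 3 of 3; adjusted p = 0.0119, 0.00105 and 0.00447, limma with Benjamini-Hochberg adjustment). In the limma fit to the knockout arrays alone Ifit1 was called higher (adjusted p = 0.0367), and Ccl5 and Cxcl10 were not (adjusted p = 0.0794 and 0.0779).

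The median gain of the 12 was 1.79 for wild type, 1.31 for MyD88 KO and 0.36 for TRIF KO. In MyD88 KO 9 of them gained at least 2-fold, against 33 of all genes (0.329%), and in TRIF KO only Gbp2 did, against 19 (0.189%). The gain was larger in MyD88 KO than in TRIF KO for 12 of 12, against 55.2% of all genes. For the other 69 late genes the medians were 1.38, 0.77 and 0.81, with 19 and 17 at least 2-fold higher in MyD88 KO and TRIF KO, and the gain was larger in MyD88 KO for 34 of 69. These 69 are defined only by their absence from the list. They include Gbp6, a relative of Gbp2, and Rtp4, whose gains were also larger in MyD88 KO. The classes were chosen on wild-type values, so a smaller gain in a knockout is not read as a result; the 2 knockouts were not used to choose them. Gbp2, a guanylate-binding protein that acts on pathogen vacuoles, differed by 2.52, 1.22 and 1.11 in wild type, MyD88 KO and TRIF KO. Rsad2, the antiviral enzyme viperin, differed by 1.87, 1.75 and 0.24, and Ifit2 by 2.05, 1.83 and 0.41.

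Cytosolic sensors and effectors were also among the 12. Ifih1, which encodes the RNA sensor MDA5, differed by 1.71, 0.97 and 0.11 in wild type, MyD88 KO and TRIF KO, Oasl1 by 1.61, 1.24 and -0.0012, Cmpk2 by 1.39, 1.39 and 0.25, and Mx1 by 1.35, 1.19 and 0.31. Parp14 and Ifi47 differed by 1.28 and 1.27 in wild type. Gbp6 and Rtp4, late genes outside the list, differed by 1.51, 0.90 and 0.25, and by 1.42, 0.77 and 0.096, in the same order. Gbp6 started from a low level of 4.53 at 1 h in wild type and reached log2 6 only on the 4 h wild-type array. Over the whole interferon list, 40 genes were measured, of which 13 were at least 2-fold higher in wild type and 0 lower. Of the 40, 23 rose and 1 fell, against 4.05% and 5.76% of all genes. The median of the list was 0.56 for wild type, 0.39 for MyD88 KO and 0.11 for TRIF KO. The gene that fell was Irf8, a lineage factor of macrophages, at -0.62 in wild type.

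Of the 12 interferon-list late genes, 9 had a promoter window and 5 of these held the interferon-stimulated response element, searched as 10 letters with positions 5 and 6 left free, on both strands (Cxcl10, Gbp2, Ifih1, Ifit1 and Rsad2). It was found in 1 of 54 other late genes with a window (Pilra) and in 3.99% of all genes. The following 3 windows are printed for genes with a gain of at least 1.75 in MyD88 KO and at most 0.71 in TRIF KO, a choice made after their values were seen. Capitals mark the matches, of which Ifit1 has 2 (104 and 85 bases before the start), Rsad2 has 1 (120 bases before) and Cxcl10 has 1 (213 bases before, so that its stretch lies farther upstream).
Ifit1, chr19:34640739-34640888, plus strand: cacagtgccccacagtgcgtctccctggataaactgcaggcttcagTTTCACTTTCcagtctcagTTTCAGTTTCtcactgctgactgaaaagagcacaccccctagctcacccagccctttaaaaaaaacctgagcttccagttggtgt
Rsad2, chr12:26456453-26456602, minus strand: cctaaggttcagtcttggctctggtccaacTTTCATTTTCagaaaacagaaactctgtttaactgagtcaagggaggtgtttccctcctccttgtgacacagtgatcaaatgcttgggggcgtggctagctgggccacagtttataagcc
Cxcl10, chr5:92348990-92349139, minus strand: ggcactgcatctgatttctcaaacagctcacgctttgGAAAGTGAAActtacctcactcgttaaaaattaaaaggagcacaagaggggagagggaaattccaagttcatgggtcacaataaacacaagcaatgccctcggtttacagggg

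Il6, Cxcl5, Il12a and Ccl4, late genes of the lists of inflammatory cytokines and of chemokines not induced by interferon, were in MyD88 KO near their 1 h level at 4 h. The cytokine Il6 read 3.97, 4.47 and 6.95 for wild type, 4.198, 3.90 and 3.98 for MyD88 KO and 3.91, 4.29 and 4.31 for TRIF KO. Cxcl5, a neutrophil chemokine, read 4.11, 4.17 and 6.47 for wild type, 4.09, 4.03 and 4.02 for MyD88 KO and 4.09, 4.09 and 5.01 for TRIF KO. Both reached the minimum of log2 6 only on the 4 h wild-type array, as did the late genes Gbp6 and Gca. These genes thus entered the analysis only through the array where they are high, and their wild-type gain is no result by itself. For Il6 and Cxcl5 all other arrays lay at low levels, at which RMA compresses differences. Il12a, a subunit of interleukin-12, differed by 1.58 for wild type, -0.021 for MyD88 KO and 0.68 for TRIF KO, and the chemokine Ccl4 by 1.28, -0.18 and 0.35. None of these 4 genes passed the test of a shared change. Of the other chemokines not induced by interferon, Cxcl16, a scavenger receptor and chemokine, and Ccl9 rose, with 0.98 and 0.73 in wild type. Of 16 measured inflammatory cytokines 1 rose, Ebi3, with 0.67, and 0 fell. This is near the shares of all genes, of which 4.05% rose and 5.76% fell.

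Several effector genes of macrophages rose and were higher at 4 h than at 1 h in all 3 genotypes. Fpr2, a receptor for formyl peptides, read 8.48, 8.53 and 11.22 for wild type, 6.84, 6.86 and 8.81 for MyD88 KO and 8.80, 8.65 and 11.20 for TRIF KO. Gpr84, which binds fatty acids of medium chain length, read 8.42, 8.85 and 11.09, then 7.22, 7.60 and 9.55, and 8.26, 8.46 and 10.31 in the same order. Clec4e, the lectin Mincle that senses mycobacterial glycolipids, read 10.86, 11.22 and 13.07, then 9.05, 9.72 and 12.07, and 10.47, 10.85 and 12.73. Within each genotype the 4 h array was far above the 0 h and 1 h arrays, while the MyD88 KO arrays started lower. The 3 genes rose by 2.40, 2.01 and 2.02 across genotypes (SE 0.123, 0.0943 and 0.122; each higher in 3 of 3; adjusted p = 5.71e-07, 3.81e-07 and 1.55e-06, limma with Benjamini-Hochberg adjustment).

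The effector list had 27 measured genes, of which 11 were at least 2-fold higher in wild type and 0 lower, against 0.897% and 0.419% of all genes. Of the 27, 17 rose and 2 fell, against 4.05% and 5.76%. Its wild-type median was 0.73. This list was chosen with earlier results of these data known. It holds Acod1, Fpr2, Gpr84 and Clec4e, which were among the 20 largest wild-type differences, so its counts are no independent result. Ptges, the prostaglandin E synthase that acts after Ptgs2, rose with 1.81 in wild type, and Serpinb2, the plasminogen activator inhibitor PAI-2, with 1.54. Slc7a2, an arginine transporter, rose with 1.94, the membrane metalloprotease Mmp14 with 1.47 and haptoglobin (Hp) with 1.35. The mitochondrial superoxide dismutase Sod2 rose with 1.16 (1.52 and 0.35 in other probe sets). Hp differed by 1.35, 1.09 and 1.23 in wild type, MyD88 KO and TRIF KO. The 2 members that fell were Thbd, the anticoagulant receptor thrombomodulin, with -0.90, and Arg1, arginase, with -0.32 in wild type.

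Of 11 measured NF-kB subunits and inhibitors, 7 rose (4.05% of all genes), 0 fell (5.76%) and 4 did not pass. In wild type 4 were late genes, and Nfkbiz was the 1 that was 2-fold lower. Nfkbie, the inhibitor IkB-epsilon, read 7.06, 7.54 and 9.08, and Nfkb2, the precursor of the non-canonical subunit p52, read 8.15, 8.45 and 9.76, although a second probe set of Nfkb2 differed by 0.14 between 1 h and 4 h. Relb, the partner of p52, read 8.20, 8.31 and 9.45, and Tnip1, a partner of A20, read 9.91, 10.24 and 11.45. Relb and Nfkbie gained 1.14 and 1.54 for wild type, 1.40 and 1.56 for MyD88 KO, and 0.85 and 0.81 for TRIF KO. The other genes of the list that rose were Nfkbib, Bcl3 and Rela, with 0.91, 0.51 and 0.48 in wild type. Traf1 and Birc3, which carry survival signals of TNF receptors, rose with 1.88 and 1.00, and Casp4, the mouse caspase that senses cytosolic LPS, rose with 1.13.

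The late genes Icam1, Cd40 and Icosl encode adhesion and costimulation molecules. Icam1, the adhesion ligand of leukocyte integrins, read 8.75, 9.37 and 11.39 in wild type, and Cd40, the receptor for T cell help, read 8.002, 7.995 and 9.88. Icam1 differed by 2.03, 1.97 and 1.29 in wild type, MyD88 KO and TRIF KO, and Cd40 by 1.89, 0.64 and 0.77. Icosl, a ligand for ICOS on T cells, differed by 1.36, 0.23 and 1.01, with 0.42 in wild type for a second probe set. All 3 rose. Of 21 measured genes of antigen presentation and costimulation, 7 rose and only Cd83 fell, and those that rose below 2-fold were Cd274, which encodes PD-L1, Tap1, Psmb10 and H2-K1, with 0.80, 0.72, 0.66 and 0.26 in wild type.

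The late genes also held a pair of Toll-like receptors. Tlr2, the receptor for bacterial lipoproteins, read 9.31, 9.77 and 11.15, and its partner Tlr1 read 7.41, 7.19 and 8.58. They differed by 1.65 and 0.89 in MyD88 KO and 1.04 and 1.12 in TRIF KO, and both rose. Ikbke, a kinase of interferon regulatory factors, rose with 0.83, 0.99 and 0.91. Of the 15 measured TLR4 signalling components 5 rose and 0 fell, namely Tlr2, Ikbke, Cd14, Myd88 and Tbk1, and the list median was -0.01 in wild type. The call of Myd88 rests in part on the MyD88 KO arrays, in which this gene was targeted. Tlr4 itself differed by -0.20 in wild type and did not pass.

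Of 13 measured genes of the oxidative stress response, 10 rose and 0 fell, with a wild-type median of 0.57. All 13 were higher at 4 h than at 1 h in wild type, as were 56.2% of all genes, and the lowest value of 0.05 was smaller than the shift that centring on reference transcripts brought. Slc7a11, the cystine importer that feeds glutathione synthesis, read 8.19, 8.25 and 10.43, and it differed by 2.17, 1.45 and 1.86 in wild type, MyD88 KO and TRIF KO. Srxn1, sulfiredoxin, differed by 0.87, 0.80 and 0.69, and Gclm, a subunit of the enzyme that makes the glutathione precursor, by 0.57, 0.63 and 0.57. Hmox1, heme oxygenase 1, differed by 0.36, 0.43 and 0.36. Slc7a11 was the 1 member past 2-fold.

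Other late genes included regulators of trafficking and the cytoskeleton. Ehd1, which recycles endosomes, read 9.21, 9.59 and 11.29 and rose with 1.71, 1.46 and 1.34 in wild type, MyD88 KO and TRIF KO, and Marcksl1, an actin-binding substrate of protein kinase C, rose with 1.69, 1.97 and 1.25. Tma16, a ribosome assembly factor, rose with 1.86, 0.88 and 1.15. Ch25h, which makes the antiviral oxysterol 25-hydroxycholesterol, read 5.49, 5.67 and 7.28 and rose with 1.61, 0.36 and 0.92. The hepatocyte growth factor receptor Met and the caveolae protein Cav1 rose with 1.52 and 1.60 in wild type.

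Among the 24 gradual genes, 16 rose, against 4.05% of all genes, and 8 did not pass. Cxcl13, a B cell chemokine, Olr1, a receptor for oxidised lipoprotein, and Tnfrsf1b, the second TNF receptor, rose with 0.96, 0.96 and 0.78 in wild type. The inflammasome sensor Nlrp3 read 8.71, 9.504 and 10.40 in wild type, with steps of 0.19 in MyD88 KO and 0.15 in TRIF KO from 1 h to 4 h, and it did not pass. Nrp2, a semaphorin receptor, had a difference of 0.9998, just under the limit. A further 6 genes were 2-fold above their 1 h level at 4 h but not above 0 h (Irgm1, Ppfibp2, Rcn1, Slc31a1, St3gal1 and Top1), and all 6 rose.

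The 37 genes of the late fall include receptors and regulators of G protein signalling, lipid regulators and transcription factors of resting macrophages. At 4 h, 24 of them were also at least 2-fold below the unstimulated array, as were 46 of all 10032 genes. The same 4 h array chose the class, so this overlap is partly built in. Across genotypes 36 fell, against 5.76% of all genes, in a fit that holds the wild-type arrays that chose them. Rgs2 did not, with an adjusted p = 0.0515 (limma, Benjamini-Hochberg). The knockout arrays gave differences below 0 for 37 of 37 in both genotypes, against 54.1% (MyD88 KO) and 57.5% (TRIF KO) of all genes. The fit to these arrays alone called 30 of the 37 lower, against 2.74% of all genes. None reached 2-fold in MyD88 KO (4 of all genes, 0.0399%) and 6 did in TRIF KO (9 of all genes, 0.0897%). The MyD88 KO value lay above the TRIF KO value, and so closer to 0, for 34 of 37, against 55.2% of all genes with the MyD88 KO value above. The medians were -0.50 and -0.67, and those over all genes -0.011 and -0.025.

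The late falls held 3 regulators of G protein signalling. Rgs1 read 11.36, 11.37 and 9.91 in wild type and differed by -1.46, -0.40 and -0.45 in wild type, MyD88 KO and TRIF KO, and Rgs2 read 10.16, 9.42 and 7.997 and differed by -1.43, -0.30 and -0.49. Rgs18 differed by -1.18, -0.55 and -0.70. The receptors Cxcr4, for the chemokine CXCL12, and Cnr2, for cannabinoids, read 10.39, 10.26 and 8.87, and 7.52, 7.35 and 6.06, and both fell. Of 7 measured chemokine receptors 3 fell, Cxcr4, Ccr2 and Ccr1, with -1.38, -0.72 and -0.38 in wild type, and 0 rose. Over all genes 5.76% fell and 4.05% rose.

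Transcription factors of the late fall included Id3, an inhibitor of E proteins, which read 8.29, 8.85 and 7.25. It fell by 1.31 across genotypes (SE 0.107, limma, Benjamini-Hochberg adjusted p = 1.27e-05), with -0.88 in MyD88 KO and -1.46 in TRIF KO. Klf4, a Kruppel-like factor of monocytes, read 6.91, 7.11 and 5.94 and differed by -1.17, -0.76 and -1.12 in wild type, MyD88 KO and TRIF KO. Pparg, the nuclear receptor of lipid metabolism, read 9.05, 8.81 and 7.40, and differed by -1.41, -0.56 and -0.72. The corepressor Ski differed by -1.10, -0.15 and -0.61. Id3, Klf4, Pparg and Ski all fell.

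Among 19 measured genes of lipid and cholesterol handling, 4 fell and 5 rose, against 5.76% and 4.05% of all genes. Those that fell were Pparg, Abcd2, a peroxisomal fatty acid transporter, Abcg1, a cholesterol exporter, and the fatty acid carrier Fabp4, with -1.41, -1.23, -0.85 and -0.69 in wild type. Those that rose were Ch25h, Idi1, Abca1, Nr1h3 and Sqle, with 1.61, 0.52, 0.48, 0.47 and 0.44. The 2 exporters Abcg1 and Abca1 thus moved in opposite directions. Abcd2 differed by -1.23, -0.84 and -1.08 in wild type, MyD88 KO and TRIF KO.

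Within the macrophage identity list 4 of 14 genes fell and 2 rose, against 5.76% and 4.05% of all genes. Mertk, the receptor that takes up apoptotic cells, read 9.22, 9.22 and 8.06 and fell with -1.16, -0.72 and -1.03 in wild type, MyD88 KO and TRIF KO. The myeloid factor Cebpa, the Fc receptor Fcgr1 and the mannose receptor Mrc1 fell with -0.86, -0.59 and -0.28 in wild type, and the scavenger receptor Msr1 and the factor Spi1 rose with 0.46 and 0.40. Other members of the late fall were Cd300lf, an inhibitory receptor (10.05, 10.06 and 8.87), Pdcd4, an inhibitor of translation (7.36, 7.22 and 5.98), Mknk2, a kinase of the translation factor eIF4E (10.25, 10.33 and 8.98), and Dio2, the thyroid hormone deiodinase (8.74, 9.05 and 7.82), whose 2 other probe sets differed less between 1 h and 4 h, by -0.42 and -0.20. Cd300lf, Pdcd4, Mknk2 and Dio2 fell across genotypes.

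**Figure D3:**
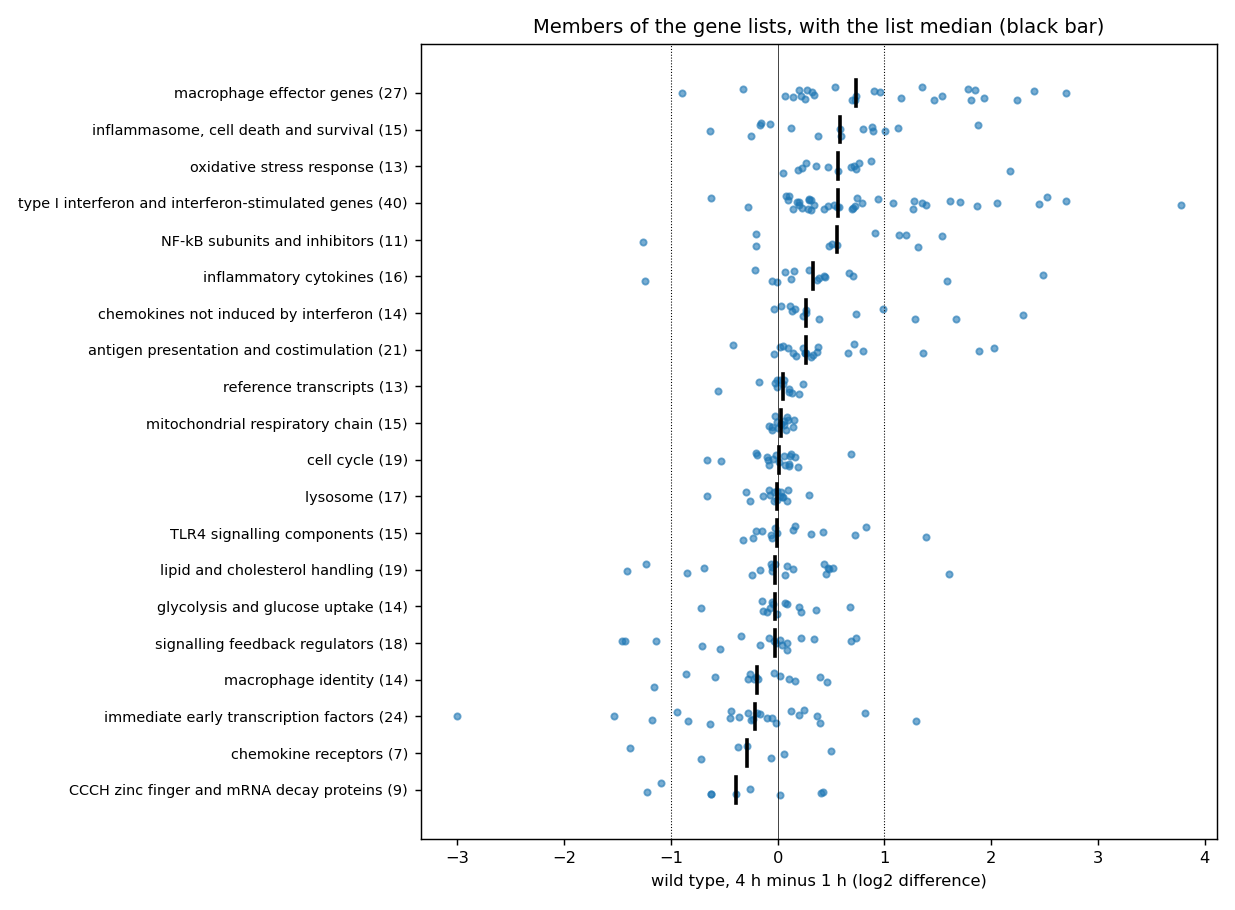
Wild-type difference from 1 h to 4 h (log2, 1 array per time) for each measured member of 20 gene lists, with the list median as a black bar and the number measured in parentheses. Dotted lines mark 2-fold. The medians of effector genes (0.73), cell death and inflammasome genes (0.58), oxidative stress genes (0.57) and interferon genes (0.56) lie to the right, and those of mRNA decay proteins (-0.39) and chemokine receptors (-0.29) to the left.

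Lists of housekeeping functions had medians near 0. The list medians in wild type were 0.03 for 15 mitochondrial respiratory chain genes, -0.03 for 14 glycolysis genes, -0.01 for 17 lysosome genes and 0.01 for 19 cell cycle genes, and none of these genes passed 2-fold. The exceptions to the test were Hif1a, a factor of the hypoxia response, which rose with 0.68, and Pfkfb3, Pla2g15, Mcm7 and Mcm6, which fell with -0.72, -0.66, -0.66 and -0.53. Of 13 reference transcripts Polr2a fell, with -0.56, and 1 of 13 is near the 5.76% of all genes that fell. In the list of inflammasome, cell death and survival genes, 6 of 15 rose, Fas, Bid and Casp1 among them with 0.80, 0.89 and 0.58, and Bcl2l11, which encodes the death factor Bim, fell with -0.64.

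The sequence of classes was also looked at in the knockout arrays, which had no part in forming them. All 5 transient genes were lower at 4 h than at 1 h in both knockouts, with medians of -0.76 in MyD88 KO and -1.17 in TRIF KO against -1.24 in wild type. The sustained genes had medians of 0.17, -0.20 and -0.13 in wild type, MyD88 KO and TRIF KO. Of these 16 genes, only 3 in MyD88 KO and 9 in TRIF KO were at least 2-fold above 0 h at 1 h. Over all genes these counts were 7 and 14. For the others a small difference from 1 h to 4 h does not show a sustained induction. The late genes had medians of 1.39, 0.86 and 0.76 and were above 0 in 78 of 81 for MyD88 KO (45.9% of all genes) and 79 of 81 for TRIF KO (42.5%). At least 2-fold higher were 28 and 18, against 0.329% and 0.189% of all genes. The genotype arrays differ in genotype and are no replicates of wild type, and each knockout value has 1 array a side.

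**Figure D4:**
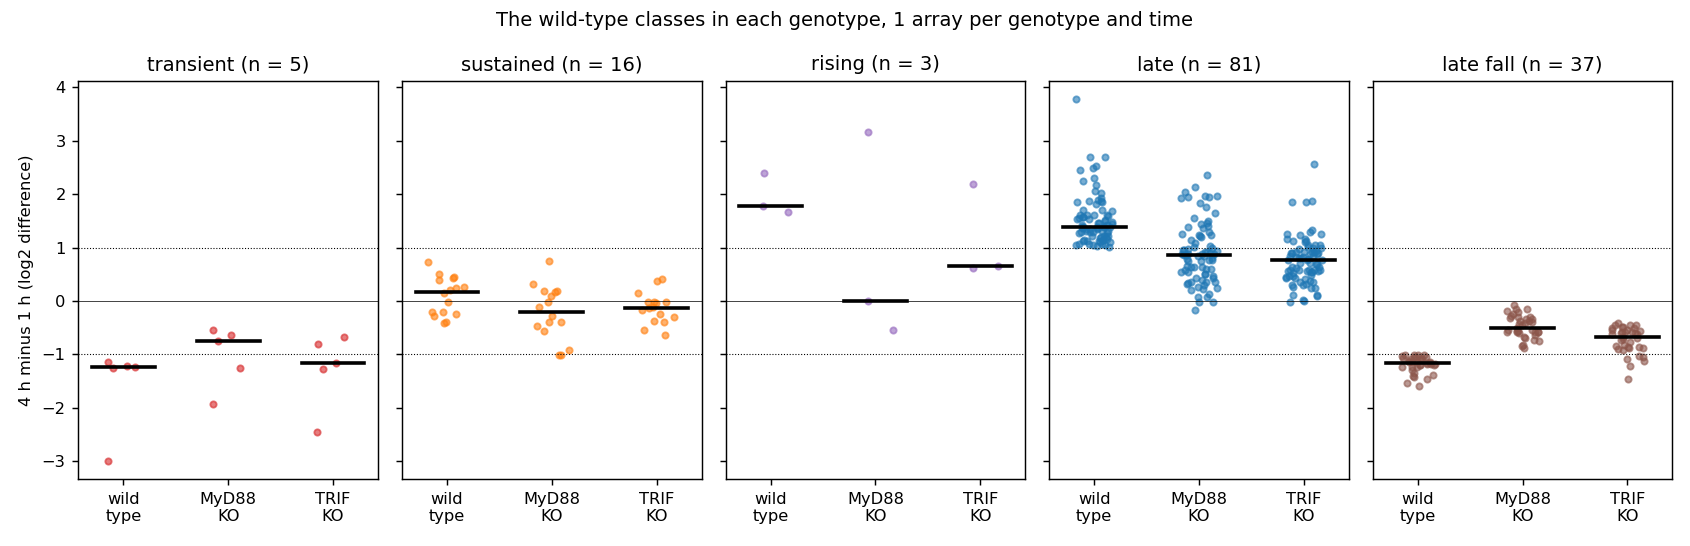
Difference from 1 h to 4 h of LPS (log2) of each member of 5 classes in wild type, MyD88 KO and TRIF KO, with 1 point per gene, a bar for the class median and dotted lines at 2-fold. The classes were chosen on the wild-type column. The rising genes spread widest in MyD88 KO, from -0.54 for Ccl3 to 3.16 for Acod1, and all 37 late fall genes stay below 0 in every column.

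The choice of probe set had little bearing on the direction of the larger differences. Of the genes at least 2-fold higher or lower in wild type, 48 had other probe sets, of which 57 reached log2 6. The sign was the same for 56 of the 57, the exception being Zfp36l2, and 30 also passed 2-fold.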

How the data were processed

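The authors deposited log2 expression values for 22690 Affymetrix probe sets on 9 arrays of biotin-labelled cRNA, and the submitters' processing notes name RMA. This method subtracts background, equalises the distributions of the arrays and summarises probes, which compresses low values; the sources used here give neither its version nor whether all arrays were normalized in 1 run. The number of arrays limits the precision.

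Values were used as deposited. Of the probe sets, 20393 carried 1 gene symbol in the platform annotation, 691 several and 1606 none; symbols were updated through RefSeq identifiers (20364 matched). Each gene took its probe set with the highest mean, which mattered for 4519 analysed genes, and 10032 of 12394 named genes reached log2 6 on at least 1 array. Wild-type differences were sorted by size (2-fold, log2 1), without a test. The test used limma 3.58.1 in R 4.3.3 (lmFit, eBayes, genotype and time, two-sided, Benjamini-Hochberg over the 10032 genes, threshold 0.05), with 4 residual and 8.39 prior degrees of freedom. It was run on simulated arrays with independent noise and no differences between genotypes. That run cannot show how genotype differences in the change affect the calls. No source says whether the 3 arrays of a genotype stem from different mice, and p-values rest on the residual spread of these arrays, which holds array noise, possibly technical, and differences between genotypes in the change. Tables were made with Python 3.11.15 and pandas 2.3.3.

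Genes, classes and lists were chosen with earlier results of these data known. Named were the 20 largest and 20 smallest wild-type differences, all early genes, the 15 largest late genes, up to 5 genes per list by size, the 10 smallest adjusted p in each direction and the targeted genes; other names in the text were chosen after their values were seen. Alternatives covered the filter, the probe set rule, centring, the size limit, the class definition, the model and leaving out arrays.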

Additional observations from a re-analysis of the deposited data

Results flagged for a closer look

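In 9 genes with a difference of at least 2-fold between 1 h and 4 h in 1 genotype, the difference had the opposite sign in another. Each value rests on 1 array a side, and the differences between genotypes were not tested.

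In 4 of them, all coding for cytokines or chemokines, wild type was higher at 4 h and MyD88 KO was not. Ccl3 differed by 1.67 in wild type and -0.54 in MyD88 KO, Ccl4 by 1.28 and -0.18, Cxcl5 by 2.30 and -0.015, and Il12a by 1.58 and -0.021. The MyD88 KO values of Cxcl5 and Il12a were close to 0. Cxcl5 entered the analysis only through the 4 h wild-type array. In MyD88 KO it read 4.03 at 1 h and 4.02 at 4 h, low levels at which RMA compresses differences.

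Cxcl2 and Il1b were lower at 4 h in MyD88 KO, by -1.02 each, against 0.23 and 0.44 in wild type. Oasl1, an interferon-stimulated gene, differed by 1.61 in wild type and -0.0012 in TRIF KO, and Peli1, a ubiquitin ligase of Toll-like receptor signalling, by 1.29 and -0.024. Ifit3, an interferon-stimulated gene, differed by 1.09 in MyD88 KO and -0.050 in TRIF KO. The TRIF KO values of Oasl1, Peli1 and Ifit3 were smaller in size than 0.12, the spread of a difference of 2 arrays in the limma fit. They are thus no clear change in the opposite direction.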

How the results depend on the processing

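The labels give no replicate numbers, so no replicate block was fitted; genotype was the block of the limma fit. With a 1.5-fold limit, 235 genes were higher and 228 lower at 4 h than at 1 h in wild type, and the classes held 11 transient, 26 sustained, 13 rising, 175 late, 44 gradual, 217 late fall and 47 genes higher from 1 h only. The class medians under that limit were, in MyD88 KO, -0.55 for transient, -0.056 for sustained, 0.54 for late and -0.33 for late fall, and in TRIF KO -0.81, 0.53 and -0.49 for transient, late and late fall. A 4-fold limit left 12 genes higher and 1 lower, and 3 genes were transient when the log2 induction at 4 h had to be under 50% of that at 1 h. Centring on reference transcripts gave 68 genes lower, 63 late falls and 2 genes higher from 1 h only, and MyD88 KO medians of -0.63, -0.075, 1.01 and -0.36 for transient, sustained, late and late fall. With a mean of at least log2 7, list medians were 0.48 for chemokines not induced by interferon, -0.12 for mRNA decay proteins, 0.96 for effector genes, 0.38 for inflammasome and cell death genes, -0.094 for neutrophil markers and 0.27 for erythroid markers, and without a filter that for chemokine receptors was -0.061. Without genotype in the limma fit, 105 genes were called higher and 98 lower. Leaving out arrays gave 166 (without the wild-type 1 h array) to 443 (without MyD88 KO) called higher and 187 (without the wild-type 1 h array) to 621 (without the 4 h MyD88 KO array) called lower. It moved a count by over 1.5 times without the wild-type arrays (201 and 275), the TRIF KO arrays (237 and 190), the wild-type 4 h array (225 and 263), the TRIF KO 1 h array (253 and 240) and, for lower genes, the TRIF KO 4 h array (327). For these counts, lists and class medians, all other alternatives stayed within 1.5 times or within the spread between arrays, and the cause of the changes was not tested. Of 43 single genes followed through 463 gene and setting pairs, 436 kept their side of the threshold, 11 lost a call, 16 gained one and 0 reversed. The calls of Ccr2, Cd300lf, Clec4e, Dusp1, Fpr2, Sod2, Tpcn1, Cd83 and Ier3 were lost without genotype in the fit, and those of Cd83 and Ier3 also with values below log2 6 raised to it. Nfkbiz, Tnfsf9, Ptgs2, Ccl3, Tnf, Junb, Phlda1 and Pde4b were called under at least 1 alternative.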

Other observations

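Some genes outside the classes had the same direction in each genotype and a small adjusted p; whether their sizes differ between genotypes was not tested. Alas1, the first enzyme of heme synthesis, read 11.36, 11.28 and 12.24 at 0, 1 and 4 h in wild type and differed between 1 h and 4 h by 0.95, 0.90 and 0.93 in wild type, MyD88 KO and TRIF KO. It was higher in 3 of 3 genotypes and rose by 0.93 across them (adjusted p = 2.99e-06, limma with Benjamini-Hochberg adjustment). Socs6, of the family of cytokine signalling suppressors, fell with -0.95, -0.68 and -0.67. Tpcn1, a cation channel of endosomes and lysosomes, fell with -0.74, -0.61 and -0.68, and Wwp1, a ubiquitin ligase, with -0.75, -0.58 and -0.67. All 4 were among the genes with the smallest adjusted p in their direction.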
